A study of Mus musculus with 2 samples.

Results

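Microexons are internal exons short enough to encode only a few amino acids. They were taken here as internal exons of 3 to 27 bases held by transcript models with reads in both libraries of a long-read RNA sequencing study of the mouse hippocampus. The rule gave 527 microexons in 469 genes, of 115704 internal exons of any length seen in both libraries. The models counted were annotated transcripts, incomplete matches to them, new combinations of annotated splice sites, and models with a new splice site. The only group was hippocampus, labelled as a layer of it, from male B6CASTF1/J mice aged 14 days, which are first-generation hybrids of C57BL/6J and CAST/EiJ. The reads of the parental alleles were not told apart. Replicate 1 and replicate 2 were each made from 2 µg of RNA pooled from 3 males, and the sample labels name different animals for each. The experiment-level text repeats the animals of replicate 1, and the libraries may therefore differ by technical error alone. There was no treatment, no second genotype and no other age.

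Microexons are best known from neurons, where the splicing factors Srrm4 and Srrm3 promote their inclusion and the polypyrimidine tract-binding protein Ptbp1 represses many of them. Most neuronal microexons keep the reading frame, and they tend to add or remove a few residues at the surface of a protein or beside a domain that binds a partner. Genes of vesicle traffic, the cytoskeleton and the synapse hold many of them.

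A read was informative for a microexon if its model held the exon or, in the same gene, had an intron running across it. Inclusion is the percentage of informative reads that held the exon. A microexon counted as measured with at least 20 informative reads in each library, and as variable where its mean inclusion lay from 5% to 95%. The sequences that follow belong to 9 of the variable microexons with the most reads, and to the shortest measured one, in Dnm2. They come from GENCODE M21 transcripts on mm10, 5′ to 3′ on the strand of the gene. Capitals mark the microexon, and lower case gives 24 bases of the exon on each side in the spliced transcript. All 10 lie between coding bases.
Bsg (25 bases, chr10:79711256-79711280, plus strand): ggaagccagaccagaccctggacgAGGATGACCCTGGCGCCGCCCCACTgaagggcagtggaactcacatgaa
Cd47 (25 bases, chr16:49908054-49908078, plus strand): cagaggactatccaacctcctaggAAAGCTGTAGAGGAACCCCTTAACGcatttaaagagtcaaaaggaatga
Nckap1 (18 bases, chr2:80571213-80571230, minus strand): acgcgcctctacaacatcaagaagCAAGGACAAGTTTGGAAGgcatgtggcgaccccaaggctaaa
Pls3 (27 bases, chrX:75799717-75799743, minus strand): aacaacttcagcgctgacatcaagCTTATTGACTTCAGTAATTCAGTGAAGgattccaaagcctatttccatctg
Snap91 (15 bases, chr9:86798830-86798844, minus strand): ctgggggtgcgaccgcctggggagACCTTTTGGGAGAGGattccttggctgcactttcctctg
Atp2a2 (18 bases, chr5:122500931-122500948, minus strand): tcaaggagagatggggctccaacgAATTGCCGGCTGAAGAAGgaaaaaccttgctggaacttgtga
Trim9 (24 bases, chr12:70252020-70252043, minus strand): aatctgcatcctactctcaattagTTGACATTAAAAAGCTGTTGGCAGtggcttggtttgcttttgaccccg
Dctn1 (21 bases, chr6:83187764-83187784, plus strand): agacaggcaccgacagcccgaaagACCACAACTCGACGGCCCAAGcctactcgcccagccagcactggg
Mark3 (27 bases, chr12:111651958-111651984, plus strand): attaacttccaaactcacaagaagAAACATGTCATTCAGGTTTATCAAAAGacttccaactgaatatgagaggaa
Dnm2 (12 bases, chr9:21490658-21490669, plus strand): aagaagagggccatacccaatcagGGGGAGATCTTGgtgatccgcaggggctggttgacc

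Of the 527 microexons, 486 were annotated and 41 were new to the annotation. In GENCODE M21, 463 lay in coding sequence, 8 in a 5′ UTR, 2 in a 3′ UTR and 13 in non-coding transcripts. The shortest had 12 bases and the median length was 24 bases. Reads holding at least 1 microexon made up 2.47% of the 695055 reads of the counted classes in replicate 1 and 2.58% of the 617191 in replicate 2. In 38 genes there were at least 2 microexons, 96 in all. Enough reads to measure inclusion were found for 221 microexons in 201 genes. The other 306 had 2 to 53 informative reads over both libraries, with a median of 13, and are given no inclusion here. For 41 of the 527, presence rested on 1 including read in each library.

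A smaller share of microexons than of longer exons was almost always spliced in. Of the 221 measured, 111 (50.2%) had a mean inclusion over 95%, 92 (41.6%) were variable, and 18 (8.14%) were included in under 5% of informative reads. Among the 42087 measured exons of 28 bases or more, 93.3% were included over 95% of the time, 5.14% were variable and 1.56% were rare. Median inclusion was 95.2% for microexons and 100% for the longer exons. Taken library by library, the variable share was 39.6% ± 1.60 for microexons and 5.32% ± 0.183 for longer exons (SD, n = 2). The variable share was 36.4% of 11 exons of 12 to 17 bases, 54.4% of 68 of 18 to 23 bases, and 35.9% of 142 of 24 to 27 bases. It was 12.7% at 28 to 50 bases, 6.22% at 51 to 100 bases, 3.90% above 100 and up to 200 bases, and 4.75% above that. These shares count exons and were not tested, since exons are not replicates. They leave out annotated exons that reads spanned but no model with reads held. With at least 20 informative reads in each library, these were 42 of 42 at 3 to 11 bases, 43 of 52 at 12 to 17, and 38 of 248 at 18 to 27. No such count was made for longer exons. Reads with an intron displaced by the length of the exon, described below, counted as skipping. With annotated exons alone, 42.9% of microexons and 4.83% of longer exons were variable. The share depended on which models were counted: with annotated transcripts alone it was 17.8% of microexons and 1.88% of longer exons. The other way, with reads whose own exon overlapped the one in question counted as skipping it, it was 49.0% of microexons and 20.9% of longer exons.

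**Figure D1:**
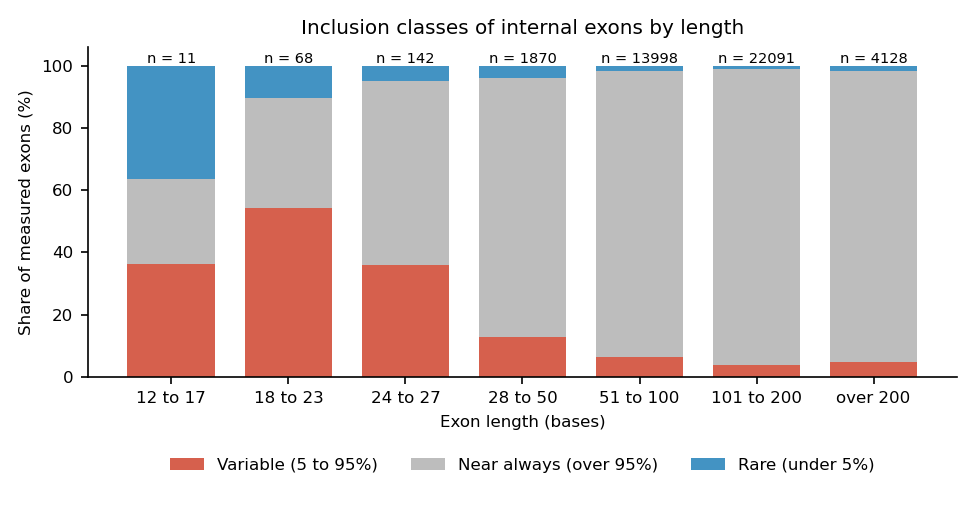
Share of measured internal exons (vertical axis, %) in each inclusion class, by exon length in bases (horizontal axis). The number of exons stands above each bar. Variable exons, in red at the bottom, made up 54.4% of exons of 18 to 23 bases and 3.90% of those above 100 and up to 200 bases.

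Variable microexons mostly had lengths that keep the reading frame. A length that is a multiple of 3 was found for 62 of 81 variable coding microexons (76.5%) and for 48 of 110 coding microexons included over 95% of the time (43.6%). For longer coding exons these shares were 54.2% of 1739 variable exons and 39.0% of 38856 exons over 95%. Over all variable exons, coding or not, the share was 64.9% of 37 at 18 to 23 bases. It was 82.4% of 51 at 24 to 27 bases, a range that begins and ends with a multiple of 3. At 28 to 50 bases it was 66.2% of 237, so the share was not particular to microexons. The introns on either side had medians of 1521 bases before and 1043 bases after a measured microexon, against 1192 and 1080 bases for measured longer exons. The letters of those introns were not analysed here. Within the variable class, mean inclusion was 75% to 95% for 48 microexons, 25% to 75% for 27, and 5% to 25% for 17. The border at 95% was crowded, with 28 microexons within 2 percentage points of it, and 13 lay within 2 points of the border at 5%.

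The 25 variable microexons with the most informative reads fell into a high, a middle and a low range. Of these, 14 had a mean inclusion over 75%, 5 lay between 45% and 70%, and 6 lay under 30%. In 20 the length was a multiple of 3. For 7 of the 14 in the high range (Bsg, Snap91, Atp2a2, Nap1l1, Mpp3, Desi1 and the 22-base exon of Suds3), inclusion passed 95% when skipping was counted only from introns that join the neighbouring exons directly.

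**Figure D2:**
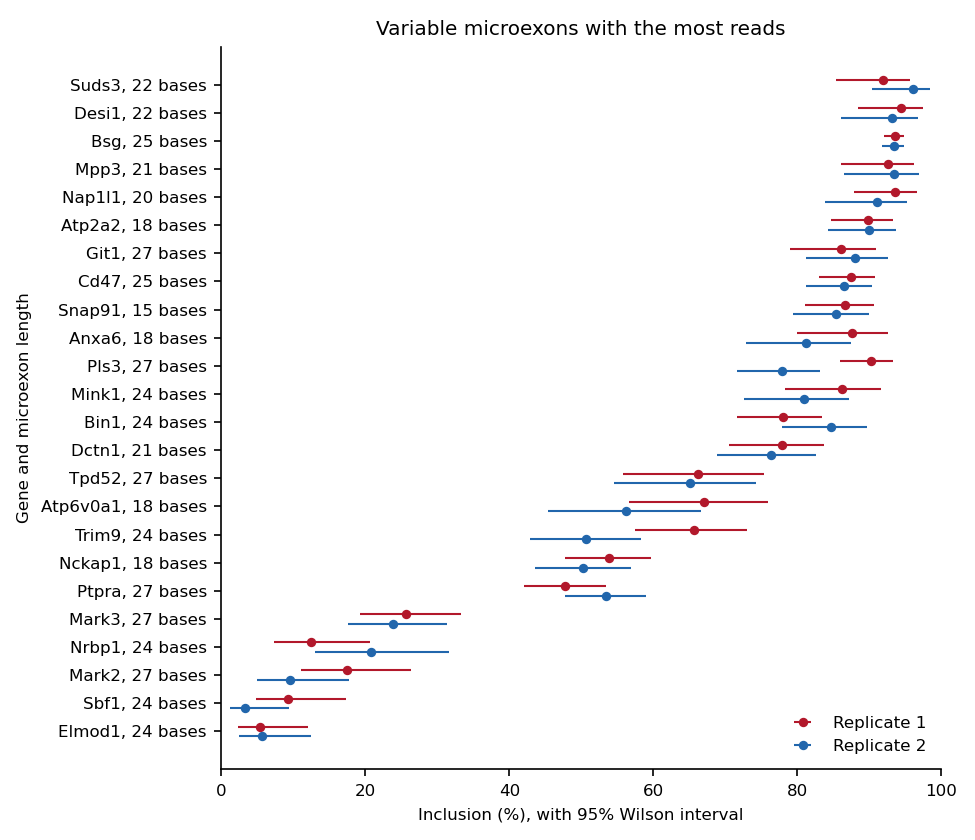
Inclusion (horizontal axis, % of informative reads, with 95% Wilson intervals) of 24 of the 25 variable microexons with the most reads, in replicate 1 (red) and replicate 2 (blue). Genes run from the highest mean inclusion at the top, 94.0% in Suds3, to the lowest, 5.50% in Elmod1, and the intervals of the libraries did not overlap in 1 of the 24, Pls3.

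Among surface proteins, the microexon of Bsg, a membrane glycoprotein that escorts lactate transporters to the cell surface, was held by 1066 of 1139 informative reads in replicate 1 and by 953 of 1019 in replicate 2. Its inclusion was 93.6% ± 0.05 (SD, n = 2). Ptpra, a receptor tyrosine phosphatase that activates Src kinases, included its 27-base exon in 139 of 291 reads (47.8%) and 157 of 294 reads (53.4%). Cd47, an immunoglobulin-like protein that binds the phagocyte receptor Sirpa, included its 25-base exon in 245 of 280 reads and 186 of 215 reads. That gave 87.5% and 86.5%, with overlapping 95% intervals.

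Calcium and proton pumps each held an 18-base exon. In Atp2a2, the calcium pump of the endoplasmic reticulum, it was in 176 of 196 reads (89.8%) and 143 of 159 reads (89.9%). In Atp6v0a1, a membrane subunit of the vesicular proton pump, it was in 59 of 88 reads (67.0%) and 45 of 80 reads (56.2%), with intervals that overlapped. The Atp6v0a1 value moved to 96.6% when annotated transcripts alone were counted. Anxa6, a calcium-dependent lipid-binding annexin, included its 18-base exon in 92 of 105 reads (87.6%) and 87 of 107 reads (81.3%).

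Cytoskeletal genes gave microexons at every level. Nckap1, a subunit of the WAVE complex that drives branched actin, included its 18-base exon in 141 of 262 reads (53.8%) and 106 of 211 reads (50.2%). The microexons of Abi1 and Abi2, which encode alternative subunits of the same complex, stood at opposite ends when all skipping introns were counted. The 15-base exon of Abi1 was in 89 of 93 reads and 103 of 104 reads, a mean inclusion of 97.4%. The 18-base exon of Abi2 was in 5 of 58 reads and 3 of 57 reads, a mean of 6.94%. Of the reads that skipped it, 11 and 6 used the intron between its annotated neighbours, and 42 and 48 used other introns. Against the first kind alone, its inclusion would be higher, on few reads. Pls3, an actin-bundling plastin, had 231 of 256 reads (90.2%) in replicate 1 and 152 of 195 reads (77.9%) in replicate 2. Dctn1 encodes the large dynactin subunit that tethers the dynein motor to microtubules, and its 21-base exons were at 77.9% and 76.4% for the downstream one. The upstream one, at chr6:83183936-83183956, was in 16 of 49 reads (32.7%) and 14 of 47 reads (29.8%). The downstream value was 42.2% without incomplete matches and 6.27% with annotated transcripts alone. Sptan1, the alpha chain of brain spectrin, held an 18-base and a 15-base exon, with mean inclusions of 99.6% and 96.9%.

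Genes of membrane uptake were also among those named. Snap91, a clathrin assembly protein of synaptic terminals, included its 15-base exon in 168 of 194 reads (86.6%) and 147 of 172 reads (85.5%). Bin1, a membrane-bending protein of the amphiphysin family on chromosome 18, included its 24-base exon in 146 of 187 reads (78.1%) and 122 of 144 reads (84.7%). With annotated transcripts alone the mean for Bin1 was 56.8% instead of 81.4%. Amph, the other amphiphysin, had 2 microexons of 24 bases, with mean inclusions of 99.4% and 99.7%. Synj1, a phosphoinositide phosphatase that helps vesicles shed clathrin, also had 2 of 24 bases, at 97.9% and 93.6%. The 93.6% value was 72.7% when overlapping exons were counted as skipping. Dnm2, the dynamin that most tissues use to cut vesicles from the membrane, had the shortest measured microexon, of 12 bases. It was in 26 of 69 reads (37.7%) and 29 of 61 reads (47.5%), and the intervals overlapped.

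Kinases and their scaffolds held microexons from the low to the high range. Mark3 and Mark2 phosphorylate microtubule-associated proteins. The 27-base exon of Mark3 was in 38 of 148 reads (25.7%) and 34 of 143 reads (23.8%). That of Mark2 was in 16 of 92 reads (17.4%) and 8 of 84 reads (9.52%). Nrbp1, a pseudokinase, included a 24-base exon in 12 of 96 reads and 15 of 72 reads, a mean of 16.7%, and Sbf1, a pseudophosphatase of the myotubularin family, included one in 8 of 86 reads and 3 of 90 reads, a mean of 6.32%. Mink1, a Ste20-family kinase, stood higher, with its 24-base exon in 88 of 102 reads and 89 of 110 reads, a mean of 83.6%. Git1, an Arf GTPase-activating scaffold, had a mean of 87.1% for 27 bases, and Mpp3, a membrane-associated guanylate kinase homologue, a mean of 93.0% for 21 bases.

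Trim9, a brain ubiquitin ligase that acts in netrin-dependent axon branching, included its 24-base exon in 92 of 140 reads (65.7%) in replicate 1 and 79 of 156 reads (50.6%) in replicate 2. Its mean of 58.2% became 81.7% with neighbouring introns alone and 45.3% with annotated transcripts alone. Tpd52, a protein of vesicle traffic, had 57 of 86 reads (66.3%) and 56 of 86 reads (65.1%), but 5.06% with annotated transcripts alone. Trappc9, a subunit of a tethering complex of the Golgi, included 27 bases in 52 of 72 reads (72.2%) and 63 of 84 reads (75%). Zfyve27, which promotes neurite outgrowth, included 21 bases in 25 of 33 and 16 of 22 reads, a mean of 74.2%. Mean inclusion for the nuclear genes was 92.3% for the 20-base exon of Nap1l1, a histone chaperone, and 90.6% for the 24-base exon of Mef2a, a transcription factor of neurons. Desi1, which removes the modifier Sumo, had a mean of 93.9% for its 22-base exon. Suds3, a subunit of the Sin3 deacetylase complex, held a 22-base exon at 94.0% and a 20-base exon at 1.87%. At the 20-base exon, 109 of 113 and 99 of 102 informative reads used an intron displaced by exactly 20 bases, with 4 extra bases on the exon before and 16 on the exon after, at sites that are not annotated.

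A list of 84 genes with microexons known from neurons was also followed. It held 34 microexons in 28 genes, and 13 in 12 genes were measured, of which 10 were variable and 3 were included over 95% of the time. Besides those above, they were in Cacnb1, a calcium channel beta subunit (20 bases, mean 94.6%), Ank2, a membrane-cytoskeleton adaptor (22 bases, mean 94.4%), and Ppfia4, a liprin of the presynaptic zone. All 50 and 46 reads of Ppfia4 held its 27-base exon. The list was drawn up with earlier results of these data known.

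Among the nearly constant microexons with the most reads, the 24-base exon of Aplp1, an amyloid precursor family protein, was in 1468 of 1470 reads (99.9%) and 1268 of 1271 reads (99.8%). Selenow, a small selenoprotein, held a 25-base exon in 1102 of 1104 and 935 of 939 reads. Rpl41, a protein of the large ribosomal subunit, had microexons of 23 and 25 bases at 99.6% and 100%. Models with an overlapping exon count neither way, and the 25-base value was 83.5% when they counted as skipping. Morf4l1, a chromatin protein, included its 26-base exon in all 359 and 305 reads. Palm, a membrane-bound phosphoprotein, stood at 99.5% for 22 bases. Both microexons of Necab2, a neuronal calcium-binding protein, were at 99.7% or above.

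No exon of 3 to 11 bases was held by models of both libraries, although many are annotated. Models held 3 such exons in replicate 1 alone and 1 in replicate 2 alone, none of them shared. The GENCODE M21 annotation used here has 309 internal exons of this length, and 42 of them were spanned by at least 20 informative reads in each library. Those 42 were all coding, and 0 of their 5951 informative reads in replicate 1 and 0 of 5302 in replicate 2 came from a model that holds the exon. At 12 to 17 bases, 7 of 52 annotated exons (13.5%) had including reads in both libraries. At 18 to 27 bases, 199 of 248 (80.2%) did. The models were built from the authors' alignments. Whether these can record an exon of under 12 bases, or most exons of 12 to 17 bases, was not tested.

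**Figure D3:**
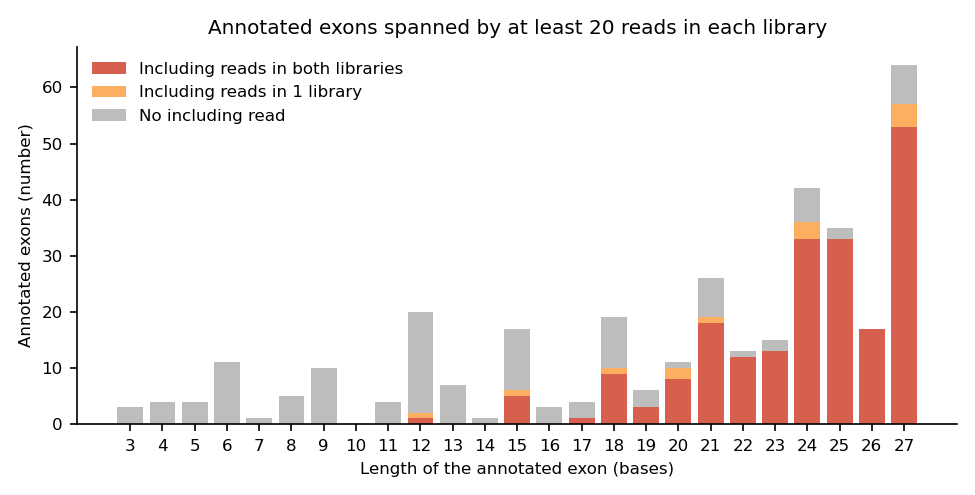
Number of annotated internal exons (vertical axis) of each length in bases (horizontal axis) that were spanned by at least 20 informative reads in each library, split by whether any model holding the exon had reads. None of the 42 exons of 3 to 11 bases had an including read, and 199 of the 248 exons of 18 to 27 bases had them in both libraries.

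Shown next are 3 of these unseen exons and an unseen one of 12 bases in Kdm1a. They and the genes of the next paragraph were chosen after their values were seen. Capitals again mark the exon, within GENCODE M21 transcripts on mm10.
Nsmf (6 bases, chr2:25057272-25057277, plus strand): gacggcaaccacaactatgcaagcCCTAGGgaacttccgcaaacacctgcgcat
Nsmf (6 bases, chr2:25057965-25057970, plus strand): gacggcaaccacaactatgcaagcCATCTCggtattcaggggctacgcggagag
Snap91 (6 bases, chr9:86809651-86809656, minus strand): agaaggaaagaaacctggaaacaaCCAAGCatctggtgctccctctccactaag
Kdm1a (12 bases, chr4:136563438-136563449, minus strand): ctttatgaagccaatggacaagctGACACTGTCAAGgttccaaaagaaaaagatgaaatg
Nsmf encodes a messenger between synapse and nucleus. Its exons of 6 bases were in 0 of 782 and 0 of 780 reads of replicate 1, and in 0 of 662 and 0 of 660 reads of replicate 2. A count of 0 of 782 allows a share of up to 0.384%, and 0 of 662 up to 0.453%. In Snap91 the 6-base exon was in 0 of 173 and 0 of 159 reads, while its 15-base exon was in most reads of the same gene. Kdm1a is a histone demethylase whose 12-base exon is known for a neuronal form. That exon was in 0 of 114 reads, which allows up to 2.63%, and 0 of 113 reads, which allows up to 2.65%. Of 20 annotated exons of 12 bases with at least 20 informative reads in each library, 1 had including reads in both. All limits given here cover counting error only. They hold only if the models can record exons this short, which was not tested.

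At a few other annotated short exons, most reads used an intron that was displaced from the annotated one by exactly the length of the exon. No informative read of the exons just shown did so. Apbb1, an adaptor of the amyloid precursor protein with a neuronal exon of 6 bases at chr7:105565946-105565951 on the minus strand, had the most such reads among genes with an exon of 3 to 11 bases. Of its informative reads, 529 of 639 (82.8%) in replicate 1 and 460 of 529 (87.0%) in replicate 2 had the next exon start 6 bases early, and 107 and 67 used the intron that skips the exon exactly. In Vps8, a vesicle tethering protein, 17 of 28 reads (60.7%) and 22 of 34 reads (64.7%) carried the 6 bases split over both neighbours, 4 on the exon before and 2 on the exon after. In Emc1, a subunit of the membrane protein insertase of the endoplasmic reticulum, 58 of 79 (73.4%) and 47 of 67 (70.1%) reads had the next exon 9 bases early, as long as its skipped exon. The moved sites of these 3 genes are annotated in other transcripts, which allows the letters to be set side by side. Capitals mark the short exon in the first of each pair and the bases gained from the moved site in the other.
Apbb1 with the 6-base exon: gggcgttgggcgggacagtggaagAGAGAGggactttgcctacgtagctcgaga
Apbb1 with the moved site: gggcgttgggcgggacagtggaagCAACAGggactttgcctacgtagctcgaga
Emc1 with the 9-base exon (chr4:139364331-139364339, plus strand): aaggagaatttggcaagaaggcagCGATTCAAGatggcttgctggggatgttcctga
Emc1 with the moved site: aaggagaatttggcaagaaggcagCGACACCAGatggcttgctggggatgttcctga
Vps8 with the 6-base exon (chr16:21451356-21451361, plus strand): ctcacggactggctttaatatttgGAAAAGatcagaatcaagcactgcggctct
Vps8 with the moved site: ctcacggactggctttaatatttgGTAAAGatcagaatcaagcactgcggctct
The paired sequences have equal lengths and differ at 3 letters in Apbb1, 3 in Emc1 and 1 in Vps8. Models and counts alone do not tell which of these letters the reads carried. In Pitpnb, a lipid transfer protein, 88 of 88 and 88 of 89 reads had the exon before extended by 8 bases, the length of an annotated 8-base exon, at a site that is not annotated. Hnrnpk, an RNA-binding protein, gave 533 of 566 reads (94.2%) and 508 of 533 reads (95.3%) with 16 extra bases on the exon before, as long as its unseen 16-base exon, also at an unannotated site. Over the 42 exons of 3 to 11 bases, such introns took 11.7% of informative reads in both libraries, and at least 10% of an exon's reads in both libraries for 4 of the 42. Apbb1 alone gave 529 of those 697 reads in replicate 1 and 460 of 619 in replicate 2, and without it the shares were 3.16% and 3.33%. Over the 52 exons of 12 to 17 bases the shares were 8.91% and 9.35%, with all but 1 and 2 reads from Hnrnpk. Over the 248 exons of 18 to 27 bases they were 0.468% and 0.462%, with all but 4 and 5 reads from the 20-base exon of Suds3.

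New microexons were mostly rare. Of the 41 with no matching annotated exon, 20 shared 1 end with an annotated exon, 20 shared none, and 1 lay inside or across an annotated exon. Measured were 16, of which 11 were under 5%, 4 were variable and 1 was over 95%. These 11 were most of the 18 rare microexons, and 16 of the 18 had 1 to 4 including reads in each library. Among the 5 new ones that were not rare was one in Eprs, the synthetase that charges transfer RNAs with glutamate and proline. This exon of 21 bases at chr1:185387357-185387377 on the plus strand was in 30 of 77 reads (39.0%) and 33 of 87 reads (37.9%). In Ptcd3, a mitochondrial ribosome-associated protein, a 25-base exon with 1 annotated end was in 41 of 42 and 52 of 54 reads. Fermt2, an integrin activator, held a new 21-base exon in 3 of 80 and 6 of 66 reads. Elmod1, a GTPase-activating protein, held one of 24 bases in 5 of 93 and 5 of 89 reads. Pak1, an actin-regulating kinase, held one of 24 bases in 3 of 199 and 4 of 156 reads. The 14-base exons of Ccnl2, a cyclin linked to splicing, and Srsf9, a splicing factor, were in 4 of 28 and 2 of 23 reads, and in 1 of 94 and 1 of 83 reads. The other rare microexons with the most reads were in Sh3bgrl, Mgrn1, Fastk and Metap2, with 1 to 4 including reads a library among 131 to 182. Of these, the exon in Fastk is not new but annotated, in a non-coding transcript.

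No microexon passed the test for a difference between the libraries, though some values lay far apart on few reads. By Fisher's exact test, two-sided, with Benjamini-Hochberg adjustment over the 2256 variable exons of all lengths, 0 of 92 variable microexons were called, and 1 exon of all 2256 (0.0443%) was. The smallest adjusted p of a microexon was 0.320, for Pls3. Unadjusted p lay under 0.05 for 5 microexons, which is 5.43% of the 92, and for 4.12% of all variable exons. The 5 were Pls3, Trim9, Mef2a, Arntl and Snx14, the last 2 named after their values were seen. Inclusion was higher in replicate 1 for 49 variable microexons and lower for 43, with a median absolute difference of 5.13 percentage points, against 4.71 points for longer variable exons. Within 10 points lay 72 of the 92. The widest gap, 33.0 points, was in Arntl, a clock transcription factor, with 2 of 26 reads in replicate 1 and 11 of 27 in replicate 2. Such a test compares these 2 libraries and takes counting error alone into account.

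**Figure D4:**
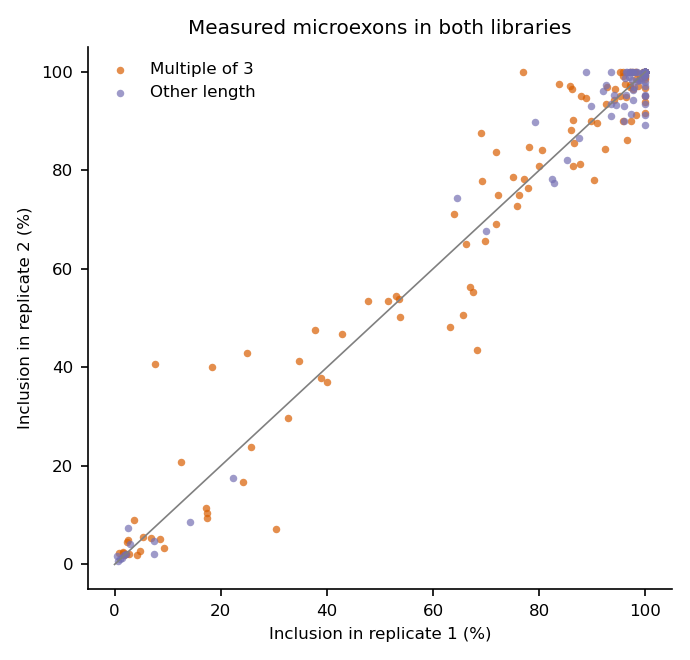
Inclusion of the 221 measured microexons in replicate 1 (horizontal axis, %) and replicate 2 (vertical axis, %), with exons whose length is a multiple of 3 in orange and others in purple, and the line of equal values in grey. Points follow the line at both ends, and 72 of the 92 variable microexons lay within 10 points of it.

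Long reads show which exons travel together in 1 molecule. Pairs were made of a variable microexon and any other variable exon of its gene, with reads that inform both. Of 105 such pairs in 45 genes, 26 (24.8%) were joined, that is, included and skipped together more often than their single levels give, in both libraries. Of all 1737 pairs of variable exons, 30.3% were joined. Kept apart were 1 of 105 pairs with a microexon and 2.76% of all pairs. Each call needed an adjusted p under 0.05 in both libraries by Fisher's exact test, two-sided, with Benjamini-Hochberg adjustment over all pairs of that library. The 27 calls lay in 13 genes. Pairs of the same gene share reads, and an intron running across several exons skips them all. The calls are therefore not all separate events.

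The firmest pair by reads was in Cd47, where the 25-base exon of the cytoplasmic tail and the next one of 33 bases went together. In replicate 1, 237 reads held both, 34 held neither, 8 held the microexon alone and 1 held the 33-base exon alone. In replicate 2 the numbers were 182, 29, 4 and 0. The microexon was thus in 99.6% and 100% of reads with the 33-base exon, and in 19% and 12.1% of reads without it. In Dctn1 the 2 microexons of 21 bases were also joined: 15 and 12 reads held both, 30 and 32 held neither, and 4 and 3 held just 1 of them. In Cd47, 34 and 29 reads skipped the microexon by the intron between its annotated neighbours. No read did so at either microexon of Dctn1, where all skipping reads used other introns. Skipping of the 2 may therefore be a single event. Trim9 had its 24-base exon in 91 of 96 and 79 of 87 reads with a 189-base exon upstream, and in 1 of 44 and 0 of 69 reads without it. Exons of 30, 33 and 42 bases were joined to it as well, the 30- and 33-base exons being forms of 1 exon with the same start coordinate. In Bin1 the microexon was joined to 6 other exons, which overlap in part. An exon of 3080 bases runs from the start of the 129-base exon upstream to the end of the upstream 108-base exon. The 41 and 22 reads that skipped the microexon all used introns other than the one between its annotated neighbours. The closest link was to the exon of 108 bases upstream, with 136 and 116 reads holding both and 1 and 2 reads holding just 1 of them.

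Mark3 gave the only pair that was kept apart. Its 27-base exon was in 0 of 38 and 0 of 38 reads with a 159-base exon upstream, and in 38 of 107 (35.5%) and 34 of 105 (32.4%) reads without it. The adjusted p was 1.77e-05 in replicate 1 and 7.20e-05 in replicate 2 by Fisher's exact test. The remaining joined pairs were in Tpd52, Sh3glb1, Urgcp, Ptk2, Mia2, Lrrfip1, Gripap1 and Ppfia1, of which all but Tpd52 are named here to account for the calls, after their values were seen. In Ptk2, the focal adhesion kinase, microexons of 21 and 18 bases were joined, with 27 and 26 reads holding both. In Lrrfip1 an 18-base microexon was joined to 5 exons, on at most 27 reads a library. The 15 and 17 reads that skipped this microexon all used introns other than the one between its annotated neighbours. The 5 pairs may therefore be a single event.

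**Figure D5:**
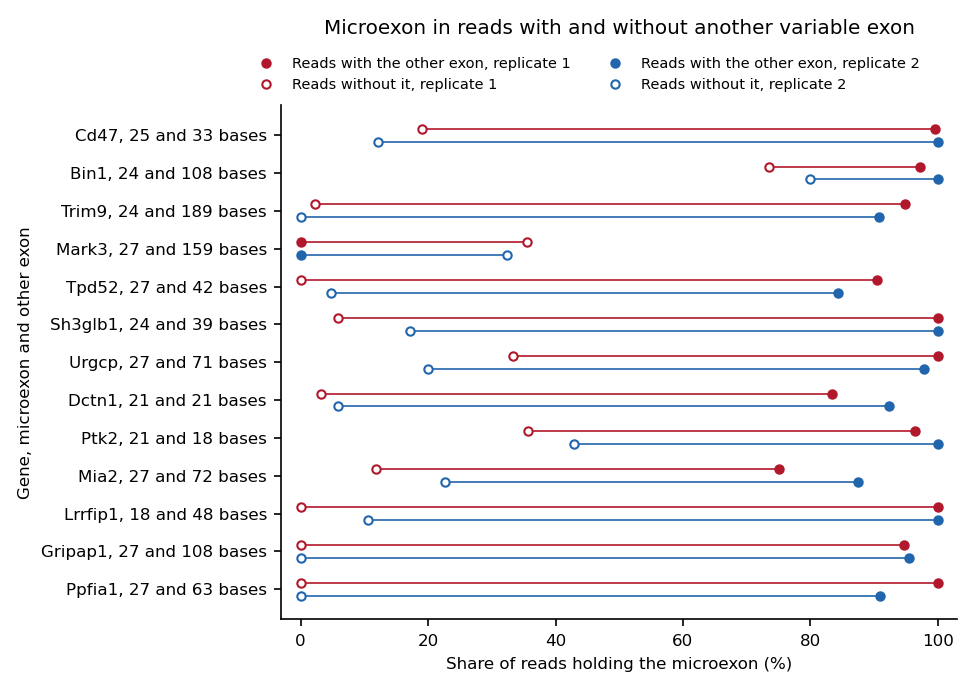
Share of reads that hold the microexon (horizontal axis, %) among reads with another variable exon of the gene (filled) and without it (open), in replicate 1 (red) and replicate 2 (blue), for the called pair with the most reads in each of 13 genes. Mark3 is the gene in which the filled points, at 0%, lie left of the open ones, at 35.5% and 32.4%.

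The defining regulators of microexons had few reads. Srrm4, the factor that most defines the neuronal microexon program, had 5 reads in replicate 1 and 10 in replicate 2, or 6.09 and 13.4 CPM (reads per 1000000 mouse reads). Srrm3 had 18 and 14 reads, or 21.9 and 18.8 CPM. Ptbp1 had 12 and 19 reads, and Ptbp2, its neuronal relative, had 64 and 86. Rbfox3, a neuronal splicing factor, had 228 and 221 reads. Of 25 regulator genes followed, 24 had reads in both libraries.

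Replicate 1 had 821324 mouse reads and replicate 2 had 743862. Markers for the tissue were present, with the sum of 3 excitatory neuron genes at 2951 and 3062 CPM and that of 5 genes of hippocampal neuron types at 673 and 936 CPM. The sum of 4 oligodendrocyte genes was 4576 CPM in replicate 1 and 2186 CPM in replicate 2. This difference stands beside every comparison between the libraries, and its part in the values of Pls3, Trim9 and other microexons was not tested. Fewer cells of a type and less RNA per cell cannot be told apart in such samples.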

How the data were processed

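The authors deposited read counts per transcript model for each of the 2 libraries, raw and without a minimum, with annotation files giving exon positions on mm10. Other columns deposited with them, the number of exons and the length of each model, were used as descriptors. Per the text deposited beside the files, models were matched to GENCODE M21 with the ENCODE long-read pipeline. No source used here gives the aligner or transcript caller.

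Exons were matched between libraries by gene, start and end. Inclusion counted annotated transcripts, incomplete matches and new models of known genes, and left out genomic, antisense and intergenic models. Shares have Wilson intervals at 95% confidence, and a count of 0 allows 3 reads. Intervals and limits cover counting error only. CPM is reads per 1000000 mouse reads, ERCC spike-in reads left out. Replicate 1 held 832263 reads and replicate 2 held 753385.

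The 60 microexons named in 53 genes were those with the most reads among variable (25), nearly constant (6) and rare (5) ones, the 5 shortest, those of the neuronal list, those in up to 6 genes with several, up to 5 new ones, and those in up to 8 called pairs. Members, lists and rules were chosen with earlier results of these data known. Fisher's exact tests used scipy 1.17.1 in Python 3.11.15, with Benjamini-Hochberg adjustment at a threshold of 0.05, and both uses of the test were checked on simulated data. Alternatives covered the minimum of reads, the models counted, the definition of skipping, the variable range, the length limit and each library left out. Intron sequence beside the exons, including splice site letters and regulator motifs, was not analysed here, since no genome was used. Of the 60, 1 is not reported here.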

Additional observations from a re-analysis of the deposited data

How the results depend on the processing

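No paired analysis was possible because both libraries belong to 1 group. No microexon was called as differing between the libraries under any alternative run. With at least 10 informative reads, 6.04% of longer exons were variable. At 50 reads, 102 microexons were measured, 41 variable and 49 over 95%, with a median inclusion of 94.1%, 11 joined pairs, and 3.99% of longer exons variable. Annotated transcripts alone left 118 measured, 21 variable (17.8%) and 1 rare, with a median of 100%, 9 joined pairs, and 1.88% of longer exons variable. Models with at least 2 reads gave 57 variable microexons (32.4%) and 6 rare, a median of 99.8%, 15 joined pairs, and 3.56% of longer exons variable. Counting skipping only from introns that join the neighbouring exons gave 30.4% of microexons variable, 11 rare, a median of 100%, and 4.08% of longer exons variable. Counting overlapping exons as skipping gave 49.0% variable and 33 rare, with medians of 90.6% for microexons and 98.5% for longer exons, of which 20.9% were variable. A variable range of 10% to 90% held 60 microexons (27.1%) and 3.16% of longer exons. A length limit of 30 bases put 189 over 95%, and exons seen in either library gave 68 rare ones. Annotated exons alone, an alternative added after seeing the data, gave 7 rare, a median of 96.7%, and 4.83% of longer exons variable. In each of these settings the variable share of microexons exceeded that of longer exons where both were computed. Without replicate 1 or without replicate 2, the variable share was 35.5% to 39.3% for microexons and 5.55% to 5.67% for longer exons, with 43 to 44 rare, a median of 92.9% to 93.8%, and 4 to 5 pairs kept apart. Of the 60 named microexons, 17 moved by more than the SD of the libraries with annotated transcripts alone, and 6 of these by over 10 points. In that setting 15 did not move, and the rest had no value. Moves of over 10 points were also found for 1 without incomplete matches (Dctn1) and 2 with neighbouring introns alone (Trim9, to 81.7%, and Snap91, to 98.7%). With overlapping exons as skipping, 2 moved that far (Synj1 and Rpl41). Leaving out the exon with the most displaced-intron reads, also chosen after seeing the data, lowered the mean share of such reads at 3 to 11 bases to 3.25%. The causes were not tested. At 20 reads a library, an inclusion near 50% carries an interval many points wide, and exons of the 306 unmeasured members were out of reach at this depth.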
